A study of Mus musculus with 8 samples.

Results

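The 10 genes described here, Plac1, Nrk, Chdh, Crxos, Tinagl1, Cpeb1, Spink1, Dpp4, Nrp2 and Kbtbd11, were selected on the size of their log2 difference between siSox2 and siNonTarget arrays, in mouse embryonic stem cells treated with siRNA (small interfering RNA) against Sox2 or with a non-targeting siRNA. They were read by 22 of the 45037 probe sets tested, each annotated with exactly 1 gene symbol. They are 10 of 18193 genes. The array has 4 probe sets each for Dpp4, Nrp2 and Kbtbd11, 3 for Nrk, 2 for Crxos and 1 for each of the other genes. No filter on low values was used, so all 22 probe sets entered the fit behind the values below.

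Cells of the embryonic stem cell line NG4 received siSox2, siPsmd14, siDdb1 or the non-targeting siRNA siNonTarget, and RNA was taken 48 h later. Each of the 4 groups has 2 Affymetrix arrays, and 5 ng of total RNA was amplified for each. The groups differ, by their labels, only in the siRNA. Nothing in the labels says that the replicates are separate cultures, so p-values measure only how far these arrays differ, and that variation may be technical.

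Sox2 is a DNA-binding factor that works with Pou5f1 to hold embryonic stem cells in the pluripotent state, and mouse embryonic stem cells that lose Sox2 are known to take on features of trophectoderm, the lineage that builds the placenta. Psmd14 is the subunit of the proteasome that removes ubiquitin chains from proteins about to be degraded. Ddb1 links substrate receptors to the CUL4 ubiquitin ligases. Among the genes described here, Plac1 and Nrk are X-linked genes known for their role in mouse placental growth, and Spink1, Dpp4 and Nrp2 encode secreted or cell-surface proteins.

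The sequences below are the annotated start regions of 5 of these genes, chosen by their array values. Plac1 had the largest difference, and Tinagl1 and Cpeb1 were the genes that also rose in siPsmd14. Dpp4 and Nrp2 were lower in siSox2 and did not overlap between siPsmd14 and siDdb1, as 38.1% of all probe sets did not. Each runs from 250 bases before to 50 bases after a gene start in RefSeq's annotation of build GRCm38.p6, 5′ to 3′ on the gene's strand. Capitals mark the 6-base cores CATTGT and CTTTGT, or their reverse complements ACAATG and ACAAAG, which SOX proteins are known to bind.
Plac1, upstream start, chrX:53240061-53240360, minus strand: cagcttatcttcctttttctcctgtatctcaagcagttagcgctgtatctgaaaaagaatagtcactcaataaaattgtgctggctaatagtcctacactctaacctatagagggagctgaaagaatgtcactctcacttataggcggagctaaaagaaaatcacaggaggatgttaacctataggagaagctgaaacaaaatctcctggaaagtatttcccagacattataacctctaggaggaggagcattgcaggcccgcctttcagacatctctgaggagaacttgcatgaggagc
Plac1, downstream start, chrX:53114356-53114655, minus strand: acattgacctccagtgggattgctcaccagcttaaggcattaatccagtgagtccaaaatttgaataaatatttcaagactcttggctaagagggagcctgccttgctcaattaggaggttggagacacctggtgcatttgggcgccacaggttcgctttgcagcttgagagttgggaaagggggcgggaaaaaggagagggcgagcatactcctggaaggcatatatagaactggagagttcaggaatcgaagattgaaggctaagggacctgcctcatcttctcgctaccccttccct
Tinagl1, upstream start, chr4:130175073-130175372, minus strand: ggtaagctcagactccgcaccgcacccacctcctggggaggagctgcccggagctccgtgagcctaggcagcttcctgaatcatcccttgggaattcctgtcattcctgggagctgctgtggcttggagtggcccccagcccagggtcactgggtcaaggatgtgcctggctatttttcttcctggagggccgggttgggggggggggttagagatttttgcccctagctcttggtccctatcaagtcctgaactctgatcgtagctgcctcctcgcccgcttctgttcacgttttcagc
Tinagl1, downstream start, chr4:130174753-130175052, minus strand: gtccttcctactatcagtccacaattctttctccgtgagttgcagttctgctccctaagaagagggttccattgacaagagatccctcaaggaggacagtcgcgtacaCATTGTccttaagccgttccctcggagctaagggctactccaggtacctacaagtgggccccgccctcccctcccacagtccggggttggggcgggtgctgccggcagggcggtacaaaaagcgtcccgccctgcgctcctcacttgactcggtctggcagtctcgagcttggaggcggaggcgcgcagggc
Cpeb1, chr7:81454709-81455008, minus strand: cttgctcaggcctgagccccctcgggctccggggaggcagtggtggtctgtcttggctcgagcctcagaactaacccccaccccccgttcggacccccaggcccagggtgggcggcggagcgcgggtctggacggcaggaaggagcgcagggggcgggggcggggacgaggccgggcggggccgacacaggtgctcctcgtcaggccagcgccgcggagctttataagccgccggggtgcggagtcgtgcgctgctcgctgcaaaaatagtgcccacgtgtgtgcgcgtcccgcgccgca
Dpp4, chr2:62412182-62412481, minus strand: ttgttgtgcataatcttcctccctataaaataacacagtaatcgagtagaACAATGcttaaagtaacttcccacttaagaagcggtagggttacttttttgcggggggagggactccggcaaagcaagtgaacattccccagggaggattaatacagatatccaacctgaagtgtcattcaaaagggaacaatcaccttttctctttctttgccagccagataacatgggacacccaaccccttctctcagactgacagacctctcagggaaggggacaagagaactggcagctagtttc
Nrp2, chr1:62703067-62703366, plus strand: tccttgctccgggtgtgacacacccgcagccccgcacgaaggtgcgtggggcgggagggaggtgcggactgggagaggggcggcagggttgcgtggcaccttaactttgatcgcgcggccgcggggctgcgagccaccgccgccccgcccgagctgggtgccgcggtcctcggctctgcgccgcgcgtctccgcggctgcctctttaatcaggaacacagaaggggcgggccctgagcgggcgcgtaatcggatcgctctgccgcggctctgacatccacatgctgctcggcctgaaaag

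The RefSeq table held 14 start regions for 8 of the 10 genes. Spink1 and Kbtbd11 had no entry. CATTGT or its reverse complement lay in 2 of the 14 regions, those of Tinagl1 (first base 109 of the window) and Dpp4 (first base 51), against 12.6% of all 32851 regions of this length. CTTTGT or its reverse complement lay in 2 regions, 1 each of Chdh and Crxos, against 18.7% of all regions. The POU octamer ATGCAAAT or its reverse complement was in none of the 14, and 1.74% of all regions hold it. The GATA core AGATAA, searched on both strands, lay in the upstream region of Plac1 and in that of Dpp4, against 11.2% of all regions. The TEAD core GGAATG lay in 3 of the 14 (14.7% of all), in regions of Chdh, Tinagl1 and Dpp4, and in Dpp4 its match does not overlap the SOX or GATA match. The palindromic AP-2 core GCCNNNGGC lay in 2 regions of Chdh (16.6% of all), and the TATA box TATAAA in those of Dpp4 and Cpeb1 (13.6% of all). The regions differed in base composition. Those of Nrk, Nrp2 and Cpeb1 had 74.7%, 70.7% and 72.7% G or C and 31, 37 and 33 CpG pairs. The upstream and downstream regions of Plac1 had 42.7% and 49.7% G or C with 3 and 6 CpG pairs, and the region of Dpp4 had 45.3% with 4. The median over all regions was 52.7% with 7.

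The arrays had median intensities of 27.37 to 28.83 units. The median SD between replicate arrays over all probe sets was 0.102 to 0.12 (log2) in the 4 groups. The targeted transcripts stood at 83.9% and 70.0% of the geometric siNonTarget mean for Sox2 in siSox2, 90.6% and 82.8% for Psmd14 in siPsmd14, and 22.1% and 46.1% for Ddb1 in siDdb1, each from 1 probe set. In the limma test none of these differences passed an adjusted p of 0.05 over all probe sets (adjusted p = 0.301, 0.522 and 0.147). With single arrays left out, the Ddb1 difference in siDdb1 lay between -2.18 and -1.12. All 8 fixed embryonic stem cell markers, Pou5f1 and Nanog among them, stood above the array median on every array, with summed log2 levels of 95.91 and 95.56 in siSox2, 95.38 and 96.02 in siPsmd14, 96.62 and 96.59 in siDdb1, and 97.72 and 99.26 in siNonTarget. Of these 8, Esrrb fell in siSox2 (-0.58, limma adjusted p = 0.0399) and the other 7 did not pass. On the first principal component the siSox2 arrays lay at 34.95 and 59.23 and the other 6 arrays between -26.29 and -2.27.

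In siSox2, Plac1, Nrk, Chdh, Crxos, Tinagl1 and Cpeb1 were higher than in siNonTarget and Spink1, Dpp4, Nrp2 and Kbtbd11 were lower. These differences chose the genes, so they are described here without a test. Over the whole table, 2.93% of probe sets passed the limma threshold in siSox2 against siNonTarget (1.88% higher and 1.05% lower), and in 47.7% the 2 groups did not overlap. Where a gene has several probe sets, values are those of the one with the highest 8-array mean unless another is named. All values are log2 RMA intensities, in which a difference of 1 is a doubling, and levels of different probe sets cannot be compared with each other.

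Plac1, which encodes a membrane-associated protein of the placental trophoblast, read 10.36 and 10.76 in siSox2, 5.37 and 5.36 in siPsmd14, 4.59 and 4.20 in siDdb1, and 4.58 and 4.08 in siNonTarget. Both siSox2 arrays stood far above the other 6, and the difference of 6.23 (75.1-fold) was the largest positive one of all 18193 genes. The siNonTarget and siDdb1 values lay below the array medians of 4.775 to 4.849, so the fold change rests on a dim baseline. In bulk RNA more signal per cell and more cells with signal cannot be told apart.

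Nrk, an X-linked kinase of the germinal centre kinase family, whose loss in mice is known to give enlarged placentas, read 10.90 and 11.67 in siSox2, 8.04 and 8.42 in siPsmd14, 8.17 and 8.15 in siDdb1, and 7.62 and 7.16 in siNonTarget. The siSox2 arrays were highest, siPsmd14 and siDdb1 overlapped, and siNonTarget was lowest. The difference in siSox2 was 3.89, and the other probe sets of Nrk gave 4.35 and 2.999. All 3 probe sets placed every array of the 3 knockdowns above both siNonTarget arrays.

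Tinagl1 encodes a secreted protein of basement membranes related to tubulointerstitial nephritis antigen. It read 8.21 and 9.64 in siSox2, 8.79 and 8.42 in siPsmd14, 6.21 and 6.10 in siDdb1, and 6.10 and 5.87 in siNonTarget. The siSox2 and siPsmd14 arrays overlapped, and so did the other groups, with a gap of about 2 log2 units between the pairs of groups. The difference in siSox2 was 2.94, and its 2 arrays differed by 1.43, the widest spread of the 10 genes in that group.

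Chdh, the mitochondrial enzyme that oxidises choline towards betaine, read 7.22 and 7.25 in siSox2, 3.97 and 4.43 in siPsmd14, 3.39 and 3.83 in siDdb1, and 4.28 and 3.70 in siNonTarget. It was high in siSox2 and below the array median on each of the other 6 arrays, where siNonTarget overlapped with both siPsmd14 and siDdb1. The difference in siSox2 was 3.24. Its probe set carries the suffix _s_at, by which Affymetrix marks probes shared between transcripts.

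Crxos, a homeobox gene that lies opposite the Crx gene and is known from early mouse embryos, read 8.33 and 9.18 in siSox2, 5.00 and 5.12 in siPsmd14, 5.44 and 5.84 in siDdb1, and 5.62 and 5.68 in siNonTarget. It was high in siSox2, and siPsmd14 lay below every other array. The second probe set of Crxos gave a difference of -0.20 in siSox2 in place of 3.11, with values under the array median on all 8 arrays.

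Cpeb1, which binds a sequence element in messenger RNAs and controls the length of their poly(A) tails, read 6.76 and 7.28 in siSox2, 6.44 and 6.38 in siPsmd14, 5.52 and 5.64 in siDdb1, and 4.66 and 4.61 in siNonTarget. It was the only one of the 10 genes in which none of the 4 groups overlapped with another and all 3 knockdowns lay above siNonTarget. Its difference of 2.39 in siSox2 ranked 52nd among the positive ones of all genes.

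Spink1, a secreted inhibitor of trypsin, had the largest negative difference of all genes in siSox2 (-3.16, 8.96-fold lower). It read 6.75 and 5.97 in siSox2, 9.91 and 8.80 in siPsmd14, 9.44 and 9.52 in siDdb1, and 9.34 and 9.70 in siNonTarget. Only the siSox2 arrays stood apart, and the siPsmd14 arrays differed from each other by more than those of siDdb1 or siNonTarget did.

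Dpp4, a peptidase on the cell surface also known as CD26, read 5.25 and 4.16 in siSox2, 6.77 and 6.98 in siPsmd14, 7.74 and 7.92 in siDdb1, and 7.29 and 7.15 in siNonTarget. The groups did not overlap, with siSox2 lowest and siDdb1 highest. The difference in siSox2 was -2.52, a second probe set of the type _x_at, which can cross-hybridise, gave -2.25, and the remaining 2 gave -0.53 and 0.07. The probe set with 0.07 lay below the array median on all 8 arrays.

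Nrp2, a co-receptor for semaphorins and for vascular endothelial growth factors, read 6.40 and 6.21 in siSox2, 8.78 and 8.53 in siPsmd14, 7.92 and 7.97 in siDdb1, and 8.85 and 8.61 in siNonTarget. The siSox2 arrays were lowest, siDdb1 lay between, and siPsmd14 and siNonTarget overlapped. All 4 probe sets were lower in siSox2, by differences of -2.43, -1.84, -2.09 and -1.01, and on all 4 both siDdb1 arrays lay below both siNonTarget arrays.

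Kbtbd11, a protein with BTB and kelch domains, read 6.77 and 5.63 in siSox2, 7.60 and 8.12 in siPsmd14, 8.38 and 7.94 in siDdb1, and 8.31 and 8.59 in siNonTarget. The siSox2 arrays were lowest and siDdb1 overlapped with both siPsmd14 and siNonTarget. The difference was -2.25 by this probe set and -0.78, -0.37 and -0.14 by the other 3, which lay below the array median on 6, 6 and 8 of the 8 arrays.

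**Figure D1:**
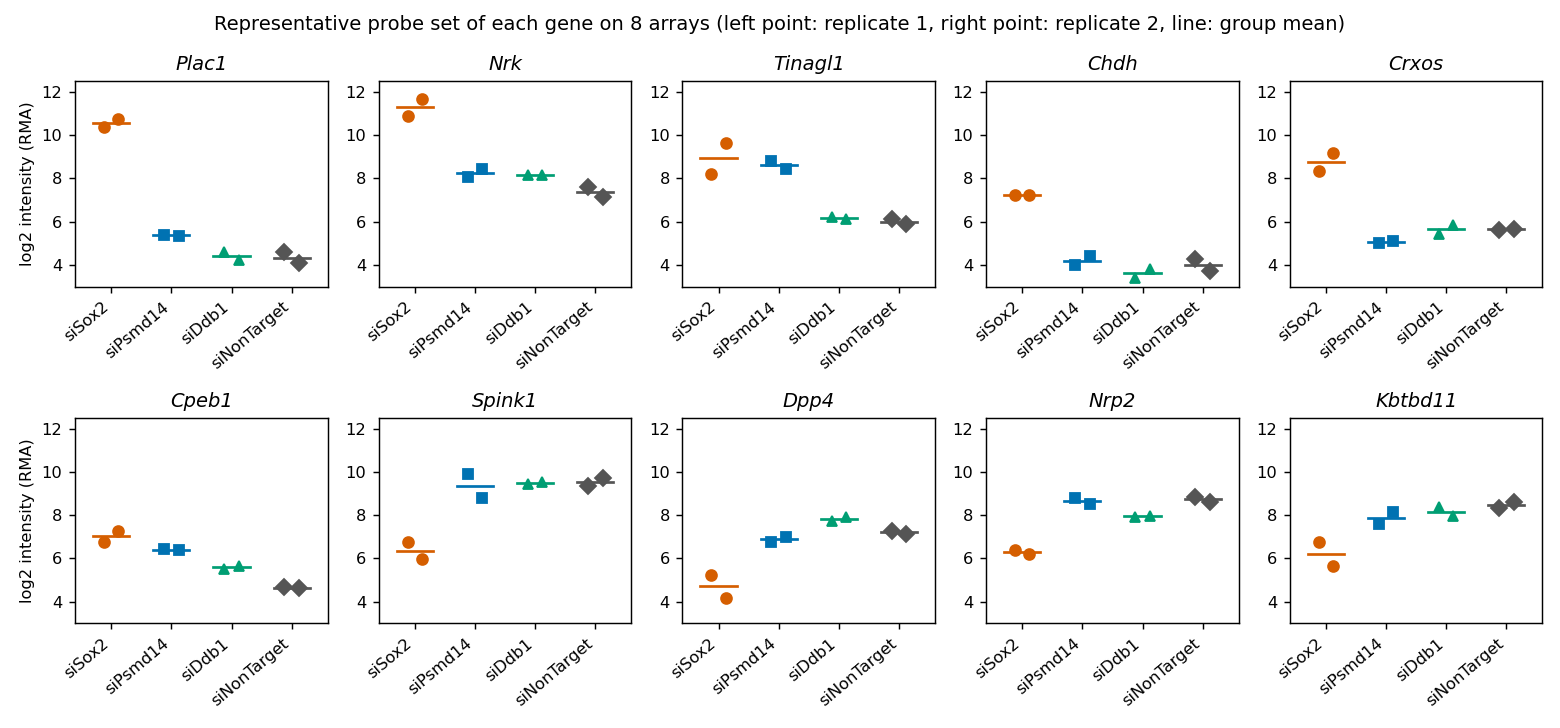
Log2 RMA intensity of the representative probe set of each of the 10 genes on all 8 arrays, with points for the replicates and a line for the group mean. The siSox2 values of Plac1 (10.36 and 10.76) stand far from all others, Tinagl1 is also high in siPsmd14 (8.79 and 8.42), and Cpeb1 steps down across the 4 groups.

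**Figure D2:**
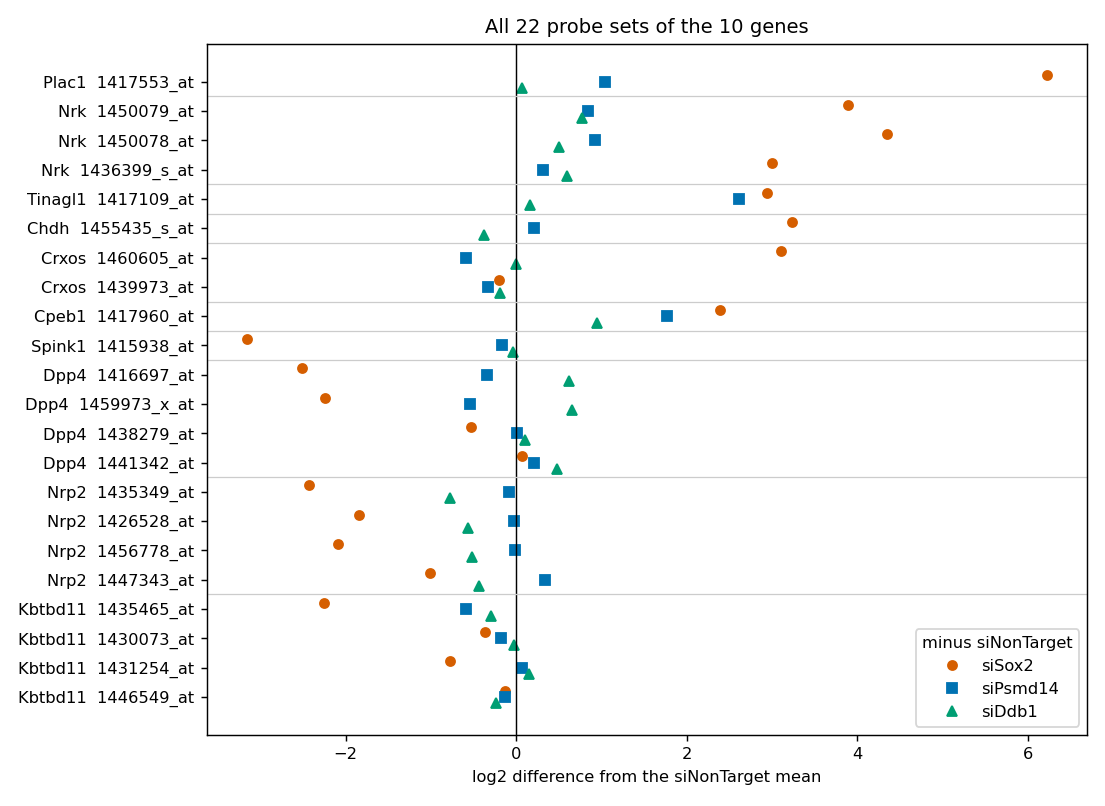
Log2 difference from the siNonTarget mean for each of the 22 probe sets, with circles for siSox2, squares for siPsmd14 and triangles for siDdb1. The probe sets of Nrk and Nrp2 give like directions in siSox2, while the second probe set of Crxos (-0.20) and 1 of Dpp4 (0.07) stand near 0.

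Among the 10 genes the order of the siSox2 differences put 5 of the 6 higher genes within the 20 largest of all genes (Plac1 first, Nrk 5th, Chdh 12th, Crxos 14th and Tinagl1 20th). The 4 lower genes, Spink1, Dpp4, Nrp2 and Kbtbd11, ranked 1st, 3rd, 4th and 6th among negative differences. Genes between Plac1 and Nrk that are not among the 10 were 3830417A13Rik (5.12), Krt7 (4.47) and Lcp1 (4.05). Among the negative ones, Lama1 (-2.94) and Notum (-2.33) ranked above Kbtbd11 and are not among the 10, and the next after Kbtbd11 was Slc7a3 (-2.25).

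In siSox2, replicate 2 lay farther than replicate 1 from the siNonTarget mean for the representative probe sets of all 10 genes, and for 16 of the 22 probe sets. The same held for 85% of the 1320 probe sets called in siSox2, and for 57.6% of all probe sets. Sox2 itself read 12.10 on siSox2 replicate 1 and 11.84 on replicate 2, against 12.23 and 12.47 in siNonTarget. The part of this difference in Sox2 signal in the larger differences on replicate 2 was not tested.

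The 2 other knockdowns were then compared with siNonTarget. These comparisons share the siNonTarget arrays with the one that chose the genes. Differences from siNonTarget in the direction seen in siSox2 may therefore be overstated, and the p-values and intervals make no allowance for it. The difference between siPsmd14 and siDdb1 is not taken from the siNonTarget arrays. Its error is, in part, since the spread is estimated over all 4 groups. In siPsmd14, 2 of the 22 probe sets passed the limma threshold, those of Tinagl1 and Cpeb1, both higher, against 1.35% of all probe sets (1.11% higher and 0.24% lower). At an unadjusted p of 0.05 in the limma test, 6 of the 22 passed, beside 14.5% of all probe sets. Those 6 read Plac1, Nrk, Crxos, Tinagl1 and Cpeb1, so that Nrk is counted more than once.

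Tinagl1 rose in siPsmd14 by 2.61 (SE 0.37, 6.12-fold, limma adjusted p = 0.0155, higher on 2 of 2 arrays). This difference stands beside 2.94 in siSox2, and the siPsmd14 mean lay 0.32 below the siSox2 mean. In siPsmd14 the call did not hold in the limma fits without siNonTarget replicate 1 (adjusted p = 0.118), siNonTarget replicate 2 (0.176) or siPsmd14 replicate 1 (0.128), or with 16 intensity units added before the log (0.0844), while the difference stayed between 2.35 and 2.80 in every fit.

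Cpeb1 rose in siPsmd14 by 1.77 (SE 0.17, 3.42-fold, limma adjusted p = 0.00408, higher on 2 of 2 arrays). Both siNonTarget values of Cpeb1 lay below their array medians, so this fold change too rests on a dim baseline. The limma call was lost without siNonTarget replicate 1 (adjusted p = 0.0767) or siNonTarget replicate 2 (0.0864). Cpeb1 and Tinagl1 each have a single probe set, so no second reading of either gene was at hand.

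Plac1 read higher in siPsmd14 by 1.04 (95% interval 0.56 to 1.51) on both arrays, with a limma adjusted p of 0.0533 that did not pass. Nrk was at 0.84 (0.26 to 1.42, limma adjusted p = 0.166) and Crxos at -0.59 (-1.16 to -0.02, limma adjusted p = 0.323). Kbtbd11 (-0.59), Dpp4 (-0.34), Chdh (0.21), Spink1 (-0.17) and Nrp2 (-0.08) had intervals that include 0. Over the 22 probe sets, 12 had groups that did not overlap in siPsmd14 against siNonTarget, 7 higher and 5 lower, beside 43.5% of all probe sets (19.8% higher and 23.7% lower). The siPsmd14 arrays lay apart from each other on the second principal component (-55.82 and -21.52), and the log2 gap between the 3′ and 5′ control probe sets of Actb, which widens in degraded RNA, was 0.346 on siPsmd14 replicate 1 against 0.096 to 0.214 on the other 7 arrays. Their part in these values was not tested. Tinagl1 and Cpeb1 read 8.42 and 6.38 on siPsmd14 replicate 2 alone, above both siNonTarget arrays.

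In siDdb1, 0 of the 22 probe sets passed the limma threshold, against 0.0266% of all probe sets. An unadjusted limma p under 0.05 was found for 9 of the 22, beside 8.04% of all probe sets. Those 9 read only Nrp2, Nrk, Dpp4 and Cpeb1, and probe sets of the same gene are not independent readings. Cpeb1 stood 0.95 above siNonTarget (95% interval 0.56 to 1.33, limma adjusted p = 0.172) and Nrk 0.77 above it (0.19 to 1.35, limma adjusted p = 0.467). Nrp2 stood at -0.78 (-1.11 to -0.45, limma adjusted p = 0.181), and its other 3 probe sets at -0.57, -0.52 and -0.44. Dpp4 stood at 0.62 (-0.04 to 1.27, limma adjusted p = 0.645) and its _x_at probe set at 0.66. The remaining probe sets of Dpp4 stood at 0.10, with the groups overlapping, and at 0.47, the latter below the array median on all 8 arrays. None of these differences is called here. In 12 of the 22 probe sets siDdb1 and siNonTarget did not overlap, 7 higher and 5 lower, beside 38.8% of all probe sets (17.6% higher and 21.2% lower). Plac1 (0.07), Tinagl1 (0.17), Crxos (-0.01), Spink1 (-0.04), Chdh (-0.38) and Kbtbd11 (-0.30) had intervals that include 0.

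Set against siDdb1, siPsmd14 had 1 of the 22 probe sets past the limma threshold, that of Tinagl1, against 0.413% of all probe sets (0.324% higher and 0.0888% lower). An unadjusted limma p under 0.05 was found for 11 of the 22, beside 10.8% of all probe sets. Those 11 include several probe sets each of Nrp2 and Dpp4, which are not independent readings. Tinagl1 was higher in siPsmd14 by 2.45 (SE 0.37, 5.46-fold, limma adjusted p = 0.0346). Leaving out siNonTarget replicate 1 or 2 (adjusted p = 0.107 each), siPsmd14 replicate 1 (0.261), siDdb1 replicate 1 (0.193) or siDdb1 replicate 2 (0.14), or adding 16 intensity units (0.144), ended this limma call. The siNonTarget arrays enter only through the shared estimate of the spread, and the difference of Tinagl1 without either of them was again 2.45.

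Of the genes that did not pass, Plac1 was at 0.97 in siPsmd14 minus siDdb1 (95% interval 0.49 to 1.44, limma adjusted p = 0.11), Cpeb1 at 0.83 (0.44 to 1.21, limma adjusted p = 0.0973), Nrp2 at 0.70 (0.37 to 1.03, limma adjusted p = 0.1) and Dpp4 at -0.96 (-1.61 to -0.30, limma adjusted p = 0.239). The Dpp4 difference passed without siSox2 replicate 1 or 2 (limma adjusted p = 0.0484 each), arrays of neither group, and its _x_at probe set passed without siPsmd14 replicate 2 (-1.63, limma adjusted p = 0.0147) against -1.20 with it. The remaining probe sets of Dpp4 were at -0.08, with the groups overlapping, and at -0.26, the latter below the array median on all 8 arrays. Chdh was at 0.59 (0.07 to 1.12, limma adjusted p = 0.389) and Crxos at -0.58 (-1.15 to -0.02). Nrk (0.07), Spink1 (-0.13) and Kbtbd11 (-0.29) had intervals that include 0. In 14 of the 22 probe sets these groups did not overlap, 9 higher and 5 lower, beside 38.1% of all probe sets (18.5% higher and 19.7% lower).

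**Figure D3:**
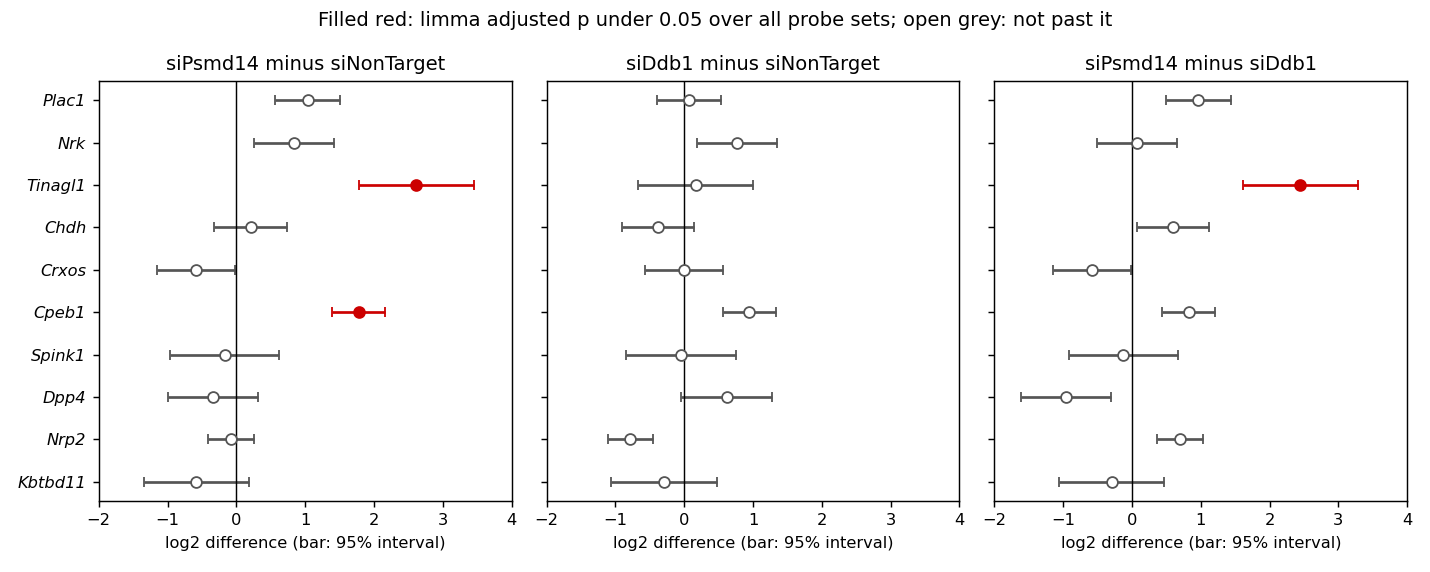
Log2 difference with its 95% interval from the limma fit for the representative probe set of each gene, for siPsmd14 minus siNonTarget, siDdb1 minus siNonTarget and siPsmd14 minus siDdb1. Red points passed the adjusted threshold, namely Tinagl1 (2.61) and Cpeb1 (1.77) in the first panel and Tinagl1 (2.45) in the third.

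For each of the 10 genes, the genes with the most similar profile were taken as those with the smallest root mean square difference between log2 deviations from their own mean over the 8 arrays. The measure rests on the same arrays that chose the 10 genes and is given as a description. Tinagl1 was closest to the keratin genes Krt8 (0.22) and Krt18 (0.32), which were likewise high in siSox2 and siPsmd14. Krt8 read 12.36 and 13.47 in siSox2, 12.51 and 12.40 in siPsmd14, 10.45 and 10.49 in siDdb1, and 9.92 and 9.74 in siNonTarget.

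Cpeb1 was closest to Jun, a subunit of the transcription factor AP-1, and to Efemp1, a matrix glycoprotein gene (0.20 for each). Jun read 8.75 and 9.35 in siSox2, 8.93 and 8.63 in siPsmd14, 8.03 and 7.59 in siDdb1, and 6.95 and 6.72 in siNonTarget, so that its siSox2 and siPsmd14 values overlapped where those of Cpeb1 did not. Nrk was closest to the growth factor gene Igf2 (0.25) and the homeobox gene Irx3 (0.33). Chdh and Crxos shared the same nearest genes, Pparg (0.35 and 0.33) and Ldoc1 (0.35 and 0.28). For Plac1 the nearest were 3830417A13Rik (0.73) and Lcp1 (0.82). The measure grows with the size of a gene's differences, so these distances do not show that its pattern was unlike that of other genes. Among the genes that were lower in siSox2, Kbtbd11 was closest to Dnajc6 (0.26) and Trh (0.28), Nrp2 to Dpysl3 (0.31) and Lama1 (0.33), Spink1 to Lama1 (0.37) and Dpp4 (0.52), and Dpp4 to Notum (0.41) and Gbx2 (0.43).

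**Figure D4:**
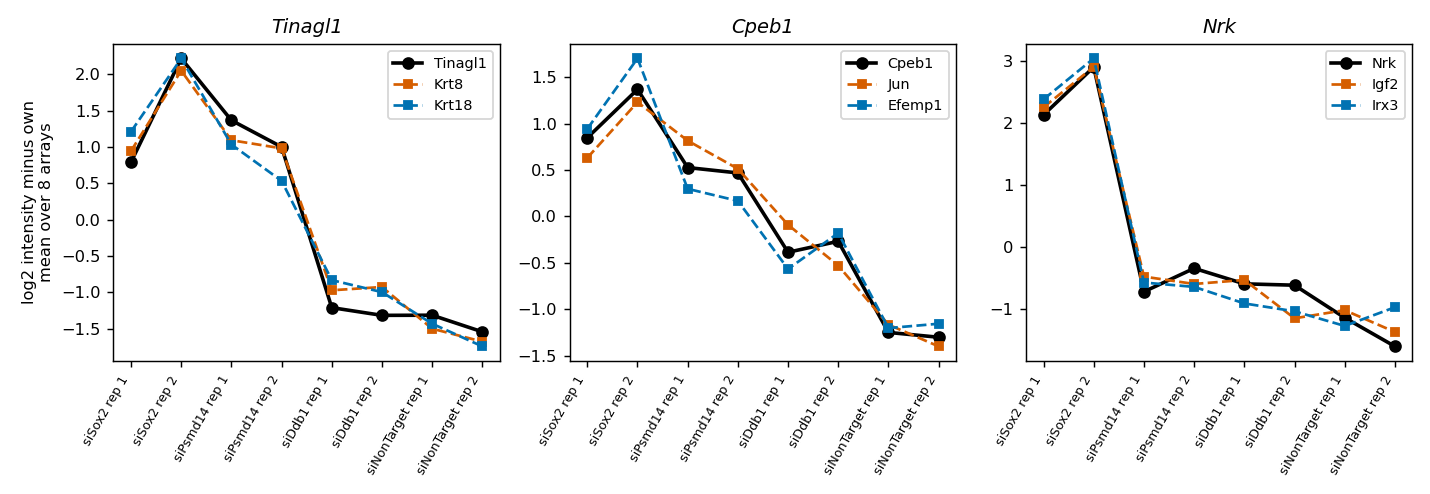
Log2 intensity minus each gene's own mean over the 8 arrays, for Tinagl1, Cpeb1 and Nrk (black) and the pair of genes with the most similar profile to each (dashed). Tinagl1 runs with Krt8 (root mean square difference 0.22), Cpeb1 with Jun (0.20) and Nrk with Igf2 (0.25).

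Lists of genes related to the 10 by function or family were read in the same fit, leaving out the 10 themselves. The lists were chosen with earlier results of these data known, so counts over them are descriptions and not tests of enrichment. Of 28 measured placental and trophoblast genes, 22 rose and 0 fell in siSox2 by limma, beside 2.81% and 1.46% of all 18193 genes (4.28% in either direction), with a median of 2.09 beside -0.03 over all genes. Krt7, a keratin of simple epithelia (4.47), Igf2 (3.78) and the nuclear receptor gene Pparg, which the placenta needs (2.94), had the smallest p, each with a limma adjusted p of 0.000332. The count was 13 of 28 without siNonTarget replicate 2 and 16 of 28 without siSox2 replicate 2 by limma, and those 3 genes passed without any single array. Of 7 measured trophoblast markers, Cdx2 (1.65), Gata3 (2.33) and Tfap2c (0.85) rose in siSox2, and Elf5 (0.18) and Tpbpa (0.04), both below the array median on every array, did not pass, nor did Eomes (0.36) and Hand1 (0.22). The summed log2 level of those 7 was 43.86 and 45.12 in siSox2, 41.17 and 40.71 in siPsmd14, 41.37 and 40.67 in siDdb1, and 38.77 and 38.94 in siNonTarget. The part of trophoblast-like cells in the levels of Plac1 and Nrk was not tested.

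Markers of other cells the culture could hold were read beside them. Of 7 primitive endoderm markers, Gata6 (1.87, limma adjusted p = 0.0403), Foxa2 (1.60) and Dab2 (2.67) rose in siSox2 by limma, beside 2.81% of all genes. Gata6 read 4.305 and 3.758 in siNonTarget, below the array medians. The summed log2 levels of the 7 were 36.80 and 39.05 in siSox2, against 30.91 and 30.60 in siNonTarget. Pdgfra (0.73) did not pass, nor did Gata4, Sox17 and Sox7, which lay below the array median on both arrays of siSox2 and of siNonTarget. Of 8 markers of feeder fibroblasts none rose and Thy1 fell (-1.06, limma adjusted p = 0.00554), with sums of 32.65 and 33.91 in siSox2, against 33.44 and 33.37 in siNonTarget. Their part in the values of the 10 genes was not tested.

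In siPsmd14, 5 of the 28 placental and trophoblast genes rose by limma, beside 1.7% of all genes (1.89% in either direction, 0.187% lower), with a median of 0.19. They were Krt8 (2.63), Krt18 (2.37), Krt7 (1.94), Krt19 (1.77) and the surface protein gene Plet1 (1.22). With 16 intensity units added before the log, 1 of the 28 passed. The count was 0 without siNonTarget replicate 1, siNonTarget replicate 2 or siPsmd14 replicate 1. In siDdb1, 0 of the 28 passed by limma, beside 0.044% of all genes, and 12 had an unadjusted p under 0.05, beside 9.86% of all genes. Eomes, a T-box factor of the trophoblast and mesendoderm, had the smallest p (1.41, limma adjusted p = 0.0853). Its difference lay between 1.09 and 1.73 with single arrays left out. Against siDdb1, Krt8 was higher in siPsmd14 (1.99, limma adjusted p = 0.0306), beside 0.588% of all genes called, with 0.456% higher and 0.132% lower. That call was lost without siNonTarget replicate 1 or 2 (limma adjusted p = 0.0991 each), siPsmd14 replicate 1 (0.229), siDdb1 replicate 1 (0.193) or siDdb1 replicate 2 (0.115).

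Basement membrane genes, the neighbours of Tinagl1 in function, moved in both directions. Of 14 measured, 6 rose and 1 fell in siSox2 by limma, beside 2.81% and 1.46% of all genes, with a median of 0.44. The collagen IV chains Col4a2 (3.28) and Col4a1 (2.70) were higher and the laminin chain Lama1 was lower (-2.94), each also without any single array. The count of 7 was 4 without siNonTarget replicate 1 and 3 without siNonTarget replicate 2 or siSox2 replicate 2. In siPsmd14, Col4a2 (1.70) and Col4a1 (1.16) rose, and neither passed in limma without siNonTarget replicate 1 or 2 or siPsmd14 replicate 1, nor Col4a1 without siPsmd14 replicate 2. Against siDdb1, Col4a2 (1.48, limma adjusted p = 0.0378) and the linker protein gene Nid1 (0.97, limma adjusted p = 0.0498) were higher in siPsmd14. The count of 2 was 0 without any 1 of the siNonTarget, siPsmd14 or siDdb1 arrays, and Nid1 did not pass without either siSox2 array (0.072 each). Tinag, the closest relative of Tinagl1, read 2.995 and 2.858 in siSox2, against 3.037 and 3.113 in siNonTarget, all below the array medians.

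In choline and betaine metabolism, around Chdh, 2 of 18 genes rose and 1 fell in siSox2, beside 2.81% and 1.46% of all genes. Bhmt, which uses betaine to make methionine, rose by 2.54 (SE 0.33, limma adjusted p = 0.00549), the choline transporter-like gene Slc44a3 rose by 0.86, and Pcyt1b, an enzyme of phosphatidylcholine synthesis, fell by 1.80 on the log2 scale. Bhmt read 5.54 and 6.77 in siSox2, against 3.46 and 3.78 in siNonTarget. Slc44a3 read 3.76 and 4.02 in siSox2, against 3.01 and 3.06 in siNonTarget, all below the array medians. With 16 intensity units added before the log, Bhmt (1.64, limma adjusted p = 0.0633) and Slc44a3 (0.351, limma adjusted p = 0.0781) did not pass. Without siNonTarget replicate 2 none of the 3 passed in limma (adjusted p = 0.0634, 0.147 and 0.0576), and without siNonTarget replicate 1 Pcyt1b alone did. Slc44a3 also did not pass without siSox2 replicate 2 (limma adjusted p = 0.196).

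Around Nrp2, 1 of 21 neuropilin, plexin, semaphorin and VEGF genes rose and 1 fell in siSox2 by limma, beside 2.81% and 1.46% of all genes. Vegfc, a growth factor that binds the neuropilin 2 protein, fell by 1.68 on the log2 scale (limma adjusted p = 0.00476) and Nrp1, the paralog of Nrp2, rose by 1.22 (limma adjusted p = 0.0403). Vegfc read 6.57 and 6.39 in siSox2, against 7.89 and 8.42 in siNonTarget, and Nrp1 read 5.53 and 6.04 in siSox2, against 4.46 and 4.68 in siNonTarget. The paralogs thus stood on opposite sides of siNonTarget in siSox2. Without siNonTarget replicate 2 neither passed in limma (adjusted p = 0.0634 and 0.192), and Nrp1 did not pass without siNonTarget replicate 1 (0.227) or siSox2 replicate 2 (0.316). In siPsmd14, Sema3c, a ligand of neuropilins, rose by 0.995 (limma adjusted p = 0.0331), and it did not pass in limma with any 1 of the siNonTarget or siPsmd14 arrays left out (0.07 to 0.192).

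Among CPEB and cytoplasmic polyadenylation genes, 1 of 16 rose in siSox2, beside 2.81% of all genes. That was Cpeb4, a paralog of Cpeb1 (1.02, limma adjusted p = 0.0284). It did not pass in limma without siNonTarget replicate 1 (0.181), siNonTarget replicate 2 (0.0846) or siSox2 replicate 2 (0.243). In siPsmd14 none of the 16 passed in limma and 4 had an unadjusted p under 0.05, beside 17.1% of all genes, with the paralog Cpeb2 leading (0.85, limma adjusted p = 0.0618, and 0.0251 without siSox2 replicate 1 or 2). Of 12 paired-like homeobox relatives of Crxos, 1 fell in siSox2, beside 1.46% of all genes. That was Otx2, a factor of the anterior epiblast (-1.73, limma adjusted p = 0.0193). Otx2 did not pass without siNonTarget replicate 1, siNonTarget replicate 2 or siSox2 replicate 2, with differences of -1.84, -1.62 and -1.49.

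The lists around the other genes held no call in siSox2 by limma. These were 7 genes listed with Plac1 by name (Plac8) or by domain, 8 kinases related to Nrk, and 9 Spink inhibitors and trypsins. The others were 10 prolyl peptidases related to Dpp4, and 14 genes around Kbtbd11, namely BTB-kelch adaptors and Cul3. In these lists 1, 3, 1, 1 and 1 genes had an unadjusted p under 0.05, beside 19.1% of all genes, and their medians lay between -0.05 and 0.04. The smallest p in each belonged to Zp3 (-0.54), Stk26 (-1.14, limma adjusted p = 0.0554), Tmprss2 (0.77), Prep (0.41) and Keap1 (0.36). Stk26 passed in limma without siSox2 replicate 1 (0.048) and without siDdb1 replicate 1 or 2 (0.0209 each). In siPsmd14 these 5 lists again held no call, in siDdb1 none of the 11 lists did, and against siDdb1 Keap1 was higher in siPsmd14 (0.90, limma adjusted p = 0.0401), which held without siPsmd14 replicate 2 and was lost without each of the other 7 arrays and with the replicate number as a block (0.0596).

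**Figure D5:**
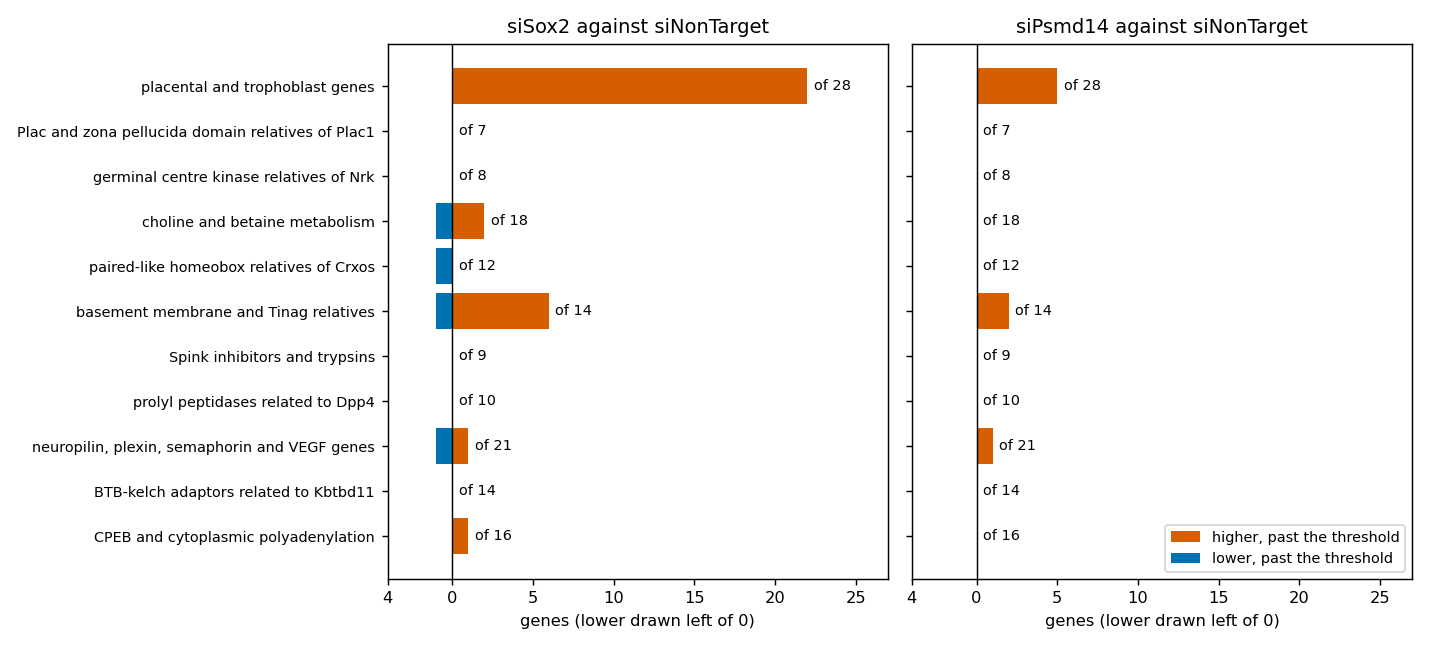
Number of genes past the limma threshold in each list of related genes, higher to the right and lower to the left of 0, in siSox2 and in siPsmd14 against siNonTarget, with the number measured at the end of each bar. Placental and trophoblast genes hold 22 calls of 28 in siSox2 and 5 in siPsmd14. The lists were chosen with earlier results of these data known, so the counts are descriptions.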

How the data were processed

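The authors deposited 1 table of RMA intensity values on a linear scale for 45101 probe sets and 8 arrays, with RMA named per the submitters' processing notes and no version given. Normalization between arrays can hide a change in total RNA per cell. Scanner files were not used here, so background correction and detection calls could not be redone. The log2 of each value was taken, and 64 control probe sets were left out. GEO's platform annotation gave 34945 probe sets 1 symbol, 932 several and 9160 none, and 34741 were looked up by Entrez identifier in RefSeq's table with 0 renamed.

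The 4 groups, taken from the sample titles, were fitted together by limma 3.58.1 in R 4.3.3, using lmFit and then eBayes with its defaults, with p-values adjusted by the Benjamini-Hochberg method over 45037 probe sets and a threshold of 0.05. Every adjusted p comes from this model or a named alternative to it. The prior held 5.02 degrees of freedom. Precision is limited by having 2 arrays per group.

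The 10 genes and the 11 lists of related genes were chosen with earlier results of these data known, so counts over them are descriptions. Named genes were the 10, the siRNA targets, the fixed markers, per list and comparison up to 3 genes past the threshold with the smallest p (or 1 where none passed), and the 2 most similar profiles for each of the 10. Other genes are named where a count or rank called for them, after their values were seen. Tinag was also named after its values were seen. Alternatives were a filter on the dimmer 50% of probe sets, an offset of 16 intensity units, quantile normalization, eBayes with trend and robust, the 2 groups alone, a replicate block and leaving out each array. The fit was tested on simulated data with known changes.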

Additional observations from a re-analysis of the deposited data

How the results depend on the processing

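Leaving out single arrays moved the number of probe sets called between 153 and 1440 in siSox2, 17 and 1295 in siPsmd14, 0 and 146 in siDdb1, and 11 and 884 in siPsmd14 against siDdb1, beside 1320, 609, 12 and 186 with all arrays. The number of the 22 probe sets of the 10 genes called lay between 0 and 2 in siPsmd14, at 0 in siDdb1, and between 0 and 2 in siPsmd14 against siDdb1. With 16 intensity units added before the log the counts were 684, 178, 0 and 19, and 1 and 0 of the 22 probe sets passed in siPsmd14 and in siPsmd14 against siDdb1. Bhmt, Slc44a3, Otx2, Nrp1 and Cpeb4 then lost their calls in siSox2, and Krt7, Krt18, Krt19, Plet1, Col4a1, Col4a2 and Sema3c in siPsmd14. So did Krt8, Col4a2, Nid1 and Keap1 in siPsmd14 against siDdb1. With only the 2 groups compared in the fit, siDdb1 had 0 calls and siPsmd14 against siDdb1 had 11. In that fit Col4a2, Nid1 and Keap1 lost their calls in siPsmd14 against siDdb1, and Sema3c in siPsmd14. Stk26 in siSox2 and Cpeb2 in siPsmd14 passed there. Without the dimmer 50% of probe sets, which left 14 of the 22, siDdb1 had 0 calls. Nid1 then lost its call in siPsmd14 against siDdb1 (limma adjusted p = 0.0564). Stk26 also passed in siSox2 with quantile normalization (limma adjusted p = 0.0476) and with trend and robust in eBayes (0.0418). Where a fit leaves 1 array in a group, that array is assumed to vary like the others, and a smaller fit has fewer degrees of freedom. The cause of the other changes was not tested.

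The labels do not say whether the replicate numbers pair the arrays. The deviations of same-numbered arrays correlated between -0.217 and 0.242 over the probe sets, which cannot decide it. With the replicate block siDdb1 had 2 calls, the counts of the other comparisons moved by less than 1.5 times, and no call of the 10 genes changed. Of the other genes named, Keap1 in siPsmd14 against siDdb1 lost its call with the block (limma adjusted p = 0.0596). With the siDdb1 numbers crossed in the block, an alternative chosen after seeing the data, siDdb1 had 53 calls.

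Differences that did not pass and changed sign had these ranges when single arrays were left out. In siPsmd14 they were -0.0826 to 0.498 for Chdh, -0.723 to 0.386 for Spink1, -0.0906 to 0.117 for a second probe set of Dpp4, -0.0683 to 0.21 for a dim probe set of Kbtbd11, and -0.205 to 0.0451, -0.143 to 0.0781 and -0.193 to 0.171 for 3 of Nrp2, the last at 0.000286 after quantile normalization. In siDdb1 they were -0.18 to 0.32 for Plac1, -0.21 to 0.19 for Crxos, -0.23 to 0.14 for Spink1, -0.11 to 0.31 for the same second probe set of Dpp4, and -0.134 to 0.0715 and -0.00359 to 0.309 for 2 dim probe sets of Kbtbd11. In siPsmd14 against siDdb1 they were -0.12 to 0.26 for Nrk, -0.303 to 0.0161 for the second probe set of Crxos, -0.68 to 0.43 for Spink1, -0.29 to 0.13 for that second probe set of Dpp4 and -0.238 to 0.0747 for a dim one of Kbtbd11. The differences of the highest-mean probe sets of Dpp4 and Kbtbd11 kept their sign in all 3 comparisons when single arrays were left out.

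Signal over background limits the dim probe sets. Of the 22, those of Chdh, Plac1 and Cpeb1 (both siNonTarget arrays), 1 of Nrp2, 1 of Crxos, 2 of Nrk, 3 of Kbtbd11 and all 4 of Dpp4 lay below the array median on at least 1 array, and no detection calls were at hand.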
